A study of Homo sapiens with 12 samples.

Results

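The clustered histone genes are the protein-coding genes that carry the older HIST1 to HIST4 symbols. They were taken from the table by biotype and symbol alone, which gave 71 of 58735 genes. By histone type they are 6 genes for H1, 17 for H2A, 18 for H2B, 15 for H3 and 15 for H4. On GRCh38, 55 lie on chromosome 6 between 25726132 and 27893843, 15 on chromosome 1 and 1, HIST4H4, on chromosome 12.

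RNA was sequenced in 12 libraries from 2 established human oesophageal squamous carcinoma lines, with 3 libraries in each of 4 groups. KYSE180 cells overexpressing CDCA7 were set against native KYSE180 cells, and KYSE150 cells carrying a hairpin RNA that targets CDCA7 (shCDCA7) against native KYSE150 cells. CDCA7 is a nuclear protein that recruits the chromatin remodeller HELLS. The labels give the native cells as wild type and name no empty-vector or non-targeting hairpin control, and they do not say whether the manipulated cells are single clones or whether the replicates are separate cultures. The p-values therefore measure the spread between these libraries, which may be technical.

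Nucleosomes are built from the core histones H2A, H2B, H3 and H4, and the linker histone H1 binds the DNA between them. Most of their genes sit in tight clusters, have no intron, and are transcribed mainly in S phase, when new DNA must be packaged. Their mRNAs usually end in a conserved stem-loop instead of a poly(A) tail. The protein SLBP binds that stem-loop and serves its processing, translation and decay. Some clustered histone genes, such as HIST2H2BE, HIST1H2BD and HIST1H2AC, are also known to give polyadenylated mRNA from a site beyond the stem-loop. The labels name total RNA and do not say how RNA was selected for the libraries, and a selection by poly(A) tail would lose stem-loop-ended mRNA.

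The 16-base stem-loop is shown because it is the element that sets these mRNAs apart. It was found in annotated GENCODE 29 transcripts of 31 of the 71 genes, in 5 spellings, by searching the sense strand for a 6-base stem that starts with GG and holds no A, a 4-base loop that starts with T, and the reverse complement of the stem. A match to this pattern, whatever its spelling, is present in 0.531% of all 83129 protein-coding transcripts. The capitals mark the stem-loop in 1 gene for each spelling, with 5 flanking bases on each side, read 5′ to 3′ on the sense strand.
HIST2H2BE (17 genes share this spelling): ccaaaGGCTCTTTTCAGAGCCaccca
HIST1H2BC (5 genes): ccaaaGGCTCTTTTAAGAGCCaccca
HIST1H4E (5 genes): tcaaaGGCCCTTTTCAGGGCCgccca
HIST1H4I (3 genes): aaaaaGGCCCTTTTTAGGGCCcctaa
HIST1H3E (1 gene): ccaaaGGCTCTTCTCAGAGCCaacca
Of these 31 genes, 21 also have an annotated transcript with a poly(A) signal (AATAAA or ATTAAA) in its last 50 bases. The signal was not required to lie past the stem-loop. In HIST1H4J, whose transcript ends 6 bases past the stem-loop, it does not. Such a signal is present in 44.2% of all protein-coding transcripts. In HIST2H2BE the annotated transcript that holds the stem-loop runs 1729 bases past it, in HIST1H2BC 116 bases. A further 33 members are annotated as coding sequence only, so neither element could be looked for in them.

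Promoters are shown for HIST2H2BE, which had the largest difference of any member with either manipulation, and for HIST1H2BC and HIST3H2A, each of which faces a histone gene on the other strand. The octamer ATTTGCAT, the site of the OCT1 factor in H2B promoters, was in the 250 bases upstream of 14 of 18 H2B genes and 11 of 14 H2A genes, on either strand. It was found in 1 of 10 H3 genes and in no H1 (6) or H4 (13) gene with a RefSeq promoter, and in 1.63% of all 35116 promoters. The H3 window that holds it, that of HIST1H3D, is the same as that of HIST1H2AD. It does not adjoin HIST1H3D as tabulated (26196840 to 26197250). CCAAT was in 51 of the 61 members with a promoter in that table and in 32% of all promoters, and TATAAA in 40 of 61 and in 10.7%. The sequences are RefSeq's (GRCh38.p14), given for the minus strand, on which all 3 genes lie, with the octamer in capitals.
HIST2H2BE, chr1:149886683-149886932: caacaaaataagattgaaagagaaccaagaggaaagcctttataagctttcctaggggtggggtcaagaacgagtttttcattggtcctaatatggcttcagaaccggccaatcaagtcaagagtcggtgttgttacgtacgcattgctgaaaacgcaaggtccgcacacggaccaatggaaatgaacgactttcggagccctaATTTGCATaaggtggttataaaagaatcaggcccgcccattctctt
HIST1H2BC, chr6:26123927-26124176: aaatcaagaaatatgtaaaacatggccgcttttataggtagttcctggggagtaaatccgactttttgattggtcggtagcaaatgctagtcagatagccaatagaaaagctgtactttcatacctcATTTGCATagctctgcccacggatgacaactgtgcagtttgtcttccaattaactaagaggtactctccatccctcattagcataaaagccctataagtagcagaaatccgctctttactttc
HIST3H2A, chr1:228457874-228458123: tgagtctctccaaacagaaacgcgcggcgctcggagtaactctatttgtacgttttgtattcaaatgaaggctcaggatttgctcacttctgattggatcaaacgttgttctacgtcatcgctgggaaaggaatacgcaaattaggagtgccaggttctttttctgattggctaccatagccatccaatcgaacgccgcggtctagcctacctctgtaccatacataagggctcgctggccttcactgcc
The octamer letters are in the first 2 of these windows and not in that of HIST3H2A. An H2A gene and an H2B gene face away from each other across 218 to 330 bases in 11 pairs, and the HIST3H2A window spans the whole gap to HIST3H2BB. Windows of paired genes can cover the same bases, so the H2A and H2B counts of the octamer are not independent. HIST1H2AC and HIST1H2BC, for example, were both counted through the same octamer.

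Values are FPKM as deposited, that is, reads per kilobase of gene scaled by an effective library size. The reads behind them were recovered and came to 16.3 M in the smallest library and 19.6 M in the largest, of which 2688 to 12318 fell on the 71 genes. As a check of the labels, CDCA7 stood at 53.9 ± 8.03 FPKM with overexpression and 19.9 ± 3.61 FPKM in native KYSE180, and at 9.41 ± 0.670 FPKM with shCDCA7 and 26.2 ± 1.06 FPKM in native KYSE150 (SD, n = 3 each). Of 10 squamous epithelial markers, 10 were at 1 FPKM or more in every KYSE180 library and 9 in every KYSE150 library. Of 8 fibroblast, leukocyte and endothelial markers at most 2 were in any library, with summed levels of 5.31 to 5.72 FPKM with overexpression against 3.79 to 7.39 in native KYSE180, and of 1.16 to 1.87 FPKM with shCDCA7 against 1.03 to 1.35 in native KYSE150. The squamous markers summed to 4475 to 5214 FPKM with overexpression against 2209 to 4030 in native KYSE180, and to 774 to 829 with shCDCA7 against 491 to 518 in native KYSE150; 0 of 10 were called with overexpression (6 higher and 0 lower at an unadjusted p under 0.05, limma-trend) and 5 of 9 higher with shCDCA7 (7 higher and 1 lower without shCDCA7 replicate 2). The 3 tested markers of other cell types had no call in either line with all libraries (limma-trend). At an unadjusted p under 0.05, 1 was higher and 0 lower with shCDCA7, and 0 passed with overexpression. Without shCDCA7 replicate 2, COL1A1 was called higher (0.39, adjusted p = 0.00506, limma-trend). Of all genes, 10% were called higher with shCDCA7, and 29.5% without replicate 2. Mitochondrial reads made up 8.39% ± 0.367 with overexpression and 5.45% ± 0.837 in native KYSE180, and 7.39% ± 3.34 with shCDCA7 and 4.09% ± 0.0627 in native KYSE150 (SD, n = 3 each). The library of shCDCA7 replicate 2 stood apart, with 11.2% mitochondrial reads, and the counts of calls in KYSE150 are given with and without it.

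Clustered histone transcripts took a small part of each library. Per 10000 reads they had 3.55, 2.78 and 3.0 with overexpression and 1.65, 1.88 and 2.39 in native KYSE180. They had 6.21, 3.43 and 6.78 per 10000 reads with shCDCA7 and 3.08, 2.98 and 3.0 in native KYSE150. Both manipulated groups lay above their native cells without overlap, and CDCA7 differed in opposite directions. In shCDCA7 replicate 2 the share was the lowest of its group. These are bulk samples, so a different share of cells in a phase and a different amount of RNA per cell cannot be told apart.

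A few genes carried most of the signal. Of the 71, 5 had no read in any library (HIST1H2AA, HIST1H2AK, HIST1H3D, HIST1H4G and HIST2H3PS2) and 24 had a mean of at least 1 FPKM over the 12 libraries. Averaged over all libraries, H2B genes made up 52.1% of the summed FPKM, H1 27.4%, H2A 11%, H4 6.09% and H3 3.30%. These shares depend on the annotated lengths, such as 381 bases for HIST1H2BK and 1668 for HIST1H2AC. By recovered reads over all libraries HIST1H1C (16294) lay above HIST1H2BK (13057) and HIST1H2AC (10770). HIST1H1C took 97.4% of the H1 level, HIST1H4I 70.9% of the H4 level, HIST1H2BK 69.3% of the H2B level and HIST1H2AC 62.6% of the H2A level. HIST1H3H took 25.8% of the H3 level. These shares varied between groups: HIST1H2AC held 34.1% of the H2A level with overexpression and 28.3% in native KYSE180, and 82.3% with shCDCA7 and 80.9% in native KYSE150. For H3 the leading gene was HIST1H3H with overexpression (19.8%) and HIST1H3C in native KYSE180 (18.8%), and HIST1H3H with shCDCA7 (44.3%) and HIST1H3G in native KYSE150 (30.2%). The highest single value was that of HIST1H2BK in shCDCA7 replicate 3, at 316 FPKM. Members annotated with a poly(A) signal reached a mean of 1 FPKM in 12 of 23 cases and those annotated as coding sequence only in 7 of 33. Those with a stem-loop and no such signal did so in 4 of 10 cases, and those with untranslated sequence but neither element in 1 of 5. Near-identical copies limit these values: 17 members share over 50% of their 50-base stretches with other genes, HIST1H2BK 74.1% of them, so their reads could have been divided or lost in the authors' counting.

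**Figure D1:**
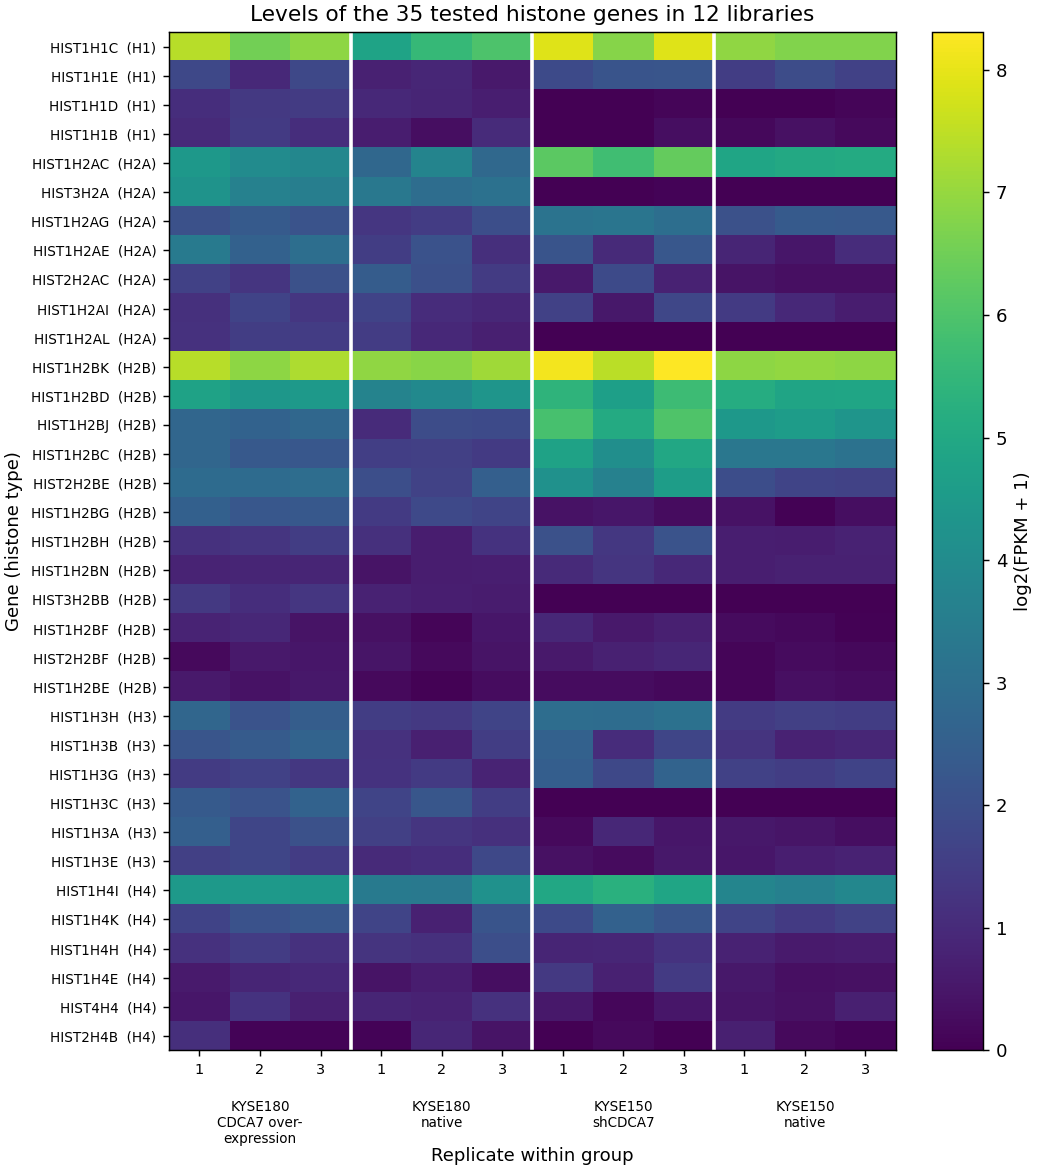
Levels of the 35 members that could be tested in all 12 libraries, as log2(FPKM + 1) (colour), with genes in rows by histone type and mean level, and libraries in columns by group. HIST1H1C and HIST1H2BK are the brightest rows, and HIST3H2A, HIST3H2BB, HIST1H3C and HIST1H2AL are dark in all 6 KYSE150 libraries.

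By type, the summed FPKM showed where the 2 lines differed. For H1 it was 173, 96.3 and 123 with overexpression against 29.8, 48.7 and 65.2 in native KYSE180. For H3 it was 25.3, 19.8 and 23.4 with overexpression against 14.3, 13.2 and 13.9 in native KYSE180, and 17.8, 12.8 and 16.9 with shCDCA7 against 6.70, 6.09 and 7.51 in native KYSE150. These groups did not overlap. For H2B the sums were 228, 164 and 205 with overexpression against 146, 141 and 174 in native KYSE180, which overlap, and 433, 263 and 494 with shCDCA7 against 187, 190 and 179 in native KYSE150, which do not. The H1 sums of KYSE150 overlapped, at 241, 114 and 244 with shCDCA7 against 124, 108 and 108 in native cells, where shCDCA7 replicate 2 lay in the native range. The sums of H2A and H4 did not overlap in either line.

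**Figure D2:**
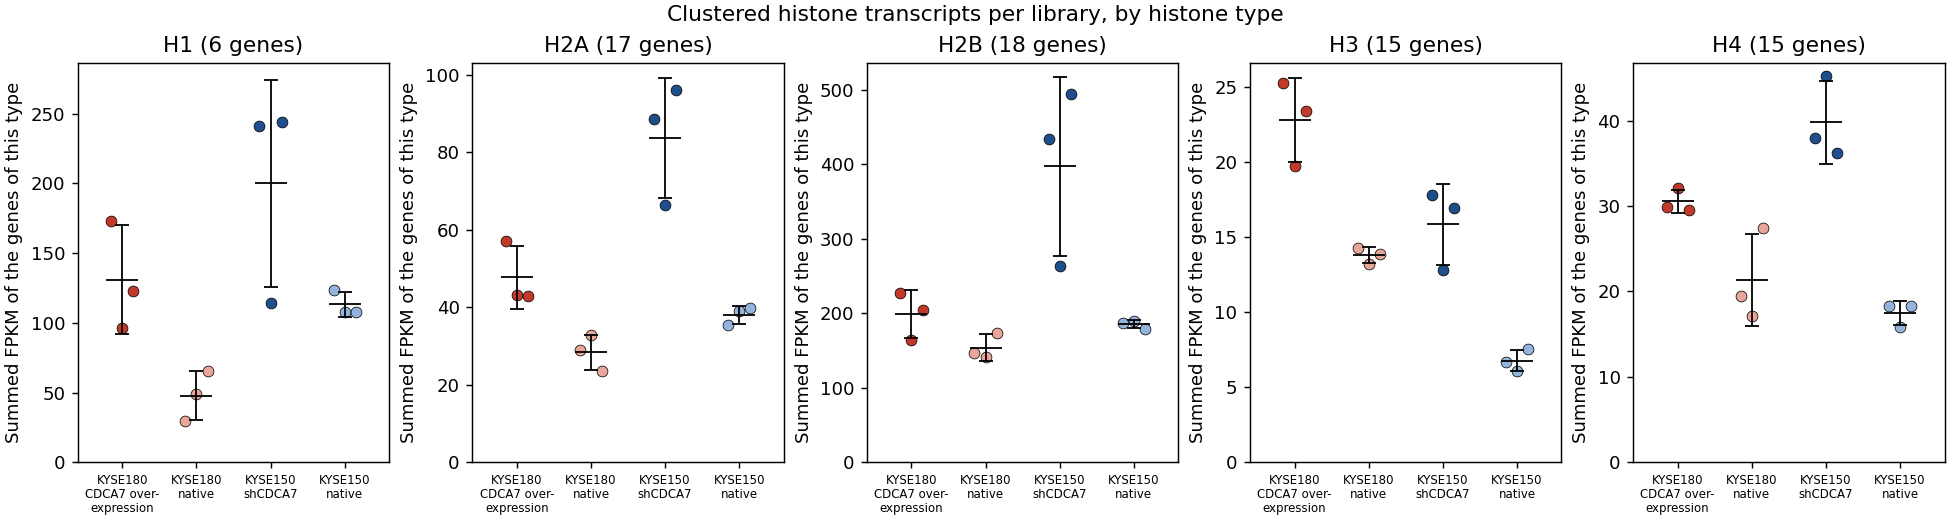
Summed FPKM of all members of each histone type in every library (points), with the group mean and SD (bars, n = 3). In the H1 panel shCDCA7 replicate 2, at 114 FPKM, lies among the native KYSE150 libraries.

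The comparison in KYSE180 asks which of these genes differ when CDCA7 is raised. Of the 34 members with enough reads for a test, 9 were called higher with overexpression and 0 lower, and 25 did not pass (limma-trend on log2(FPKM + 1), Benjamini-Hochberg adjusted p under 0.05 over all 15944 genes tested). Among all genes 4.65% were called higher and 4.43% lower. The members' median log2 difference was 0.52, against 0.00 over all genes, and 30 of 34 lay above 0. HIST1H3B, HIST1H1E, HIST1H4E, HIST1H1B and HIST1H2BE had enough reads in 3 overexpressing libraries but in only 1 native library. The filter thus favoured higher values for them, although no member passed it through 1 group alone. Untested members lay on both sides, such as HIST1H2AJ (0.973 ± 0.329 against 1.66 ± 0.443 FPKM in native cells) and HIST1H2BF (0.675 ± 0.276 against 0.269 ± 0.168 FPKM). At an unadjusted p under 0.05 there were 22 members higher and 0 lower, where 14.9% of all genes were higher and 15.1% lower. On the recovered reads limma-voom called 11 members higher and 0 lower, and 5.93% of all genes higher. By type the higher calls were 5 of 11 H2B, 2 of 6 H3, 1 of 7 H2A, 1 of 4 H1 and 0 of 6 H4 genes tested; at an unadjusted p under 0.05, 2 of those H4 genes were higher and 0 lower. Each of the 9 calls was lost when some single library was left out: 0, 2 and 0 members were called higher without overexpression replicates 1, 2 and 3, where 0.00635%, 0.669% and 0.0319% of all genes were. Without native replicates 1, 2 and 3 the members called were 0, 11 and 15, and the shares of all genes 0.32%, 6.17% and 7.93%. Calls of the members and of all genes were thus lost in the same fits. The log2 differences of the 9 were above 0 in each of these fits.

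Among the linker histones HIST1H1C (chromosome 6, 26055787 to 26056428) had the largest difference. It stood at 169, 91.8 and 118 FPKM with overexpression against 27.5, 46.4 and 63.0 FPKM in native KYSE180. The lowest overexpressing library lay above the highest native one, and the log2 difference was 1.48 (SE 0.32, adjusted p = 0.0349). HIST1H1E, the second linker gene by its mean over all libraries, was at 1.96 ± 0.861 with overexpression and 0.674 ± 0.194 FPKM in native cells and did not pass (0.78, adjusted p = 0.0677). HIST1H1D did not pass either (0.46, adjusted p = 0.0682).

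Of the H2A genes, HIST1H2AE (chromosome 6, 26216975 to 26217483) was at 9.72, 4.93 and 7.04 FPKM with overexpression and 1.83, 3.28 and 1.2 FPKM in native KYSE180, without overlap (1.42, SE 0.29, adjusted p = 0.0308). Its partner across 282 bases, HIST1H2BG, was at 4.88, 3.82 and 3.89 FPKM with overexpression and 1.67, 2.53 and 2.25 FPKM in native cells (0.73, SE 0.16, adjusted p = 0.0347). Both genes of this head-to-head pair thus passed the test. HIST1H2AC was at 16.3 ± 3.71 against 8.05 ± 3.68 FPKM in native cells and did not pass (0.98, adjusted p = 0.0615). HIST3H2A, at 13.5 ± 4.01 against 7.83 ± 1.15 FPKM, did not pass either (0.69, adjusted p = 0.0683). Nor did HIST1H2AG, at 3.55 ± 0.452 against 2.11 ± 0.807 FPKM (0.58, adjusted p = 0.0958).

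The H2B genes called higher with overexpression were HIST1H2BJ, HIST1H2BC, HIST2H2BE, HIST1H2BG and HIST3H2BB. HIST1H2BJ was at 5.73, 5.11 and 5.77 FPKM with overexpression and 1.04, 2.78 and 2.62 FPKM in native KYSE180 (1.11, SE 0.24, adjusted p = 0.0337). HIST1H2BC was at 5.64, 3.95 and 3.77 FPKM with overexpression and 1.88, 2.0 and 1.64 FPKM in native cells (0.93, SE 0.16, adjusted p = 0.0238). HIST2H2BE was at 6.45, 6.46 and 6.78 FPKM with overexpression and 2.94, 2.11 and 4.67 FPKM in native cells (0.88, SE 0.21, adjusted p = 0.0440). The overexpressing libraries agree closely for HIST2H2BE, and its native libraries vary more. HIST3H2BB, a low gene, was at 1.39 ± 0.252 with overexpression and 0.630 ± 0.102 FPKM in native cells (0.55, SE 0.11, adjusted p = 0.0324). The most abundant H2B gene did not pass: HIST1H2BK was at 171, 118 and 155 FPKM with overexpression and 121, 112 and 138 FPKM in native cells, which overlap (0.25, SE 0.18, adjusted p = 0.375). HIST1H2BD did not pass (22.7 ± 3.43 against 15.2 ± 3.47 FPKM in native cells; 0.56, adjusted p = 0.0858).

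Of the H3 genes, HIST1H3B (chromosome 6, 26031650 to 26032060) was at 3.61, 4.21 and 5.28 FPKM with overexpression and 1.27, 0.655 and 1.85 FPKM in native KYSE180 (1.27, SE 0.22, adjusted p = 0.0228). HIST1H3H (chromosome 6, 27810064 to 27811300) was at 5.70, 3.34 and 4.48 FPKM with overexpression and 1.84, 1.61 and 2.26 FPKM in native cells (0.91, SE 0.18, adjusted p = 0.0308). Neither gene shares a 50-base stretch with another gene. HIST1H3G did not pass (0.31, adjusted p = 0.255). Among H4 genes HIST1H4I was at 20.7 ± 0.676 with overexpression and 12.1 ± 4.56 FPKM in native cells without a call (0.78, adjusted p = 0.0607). HIST1H4H lay the other way (1.42 ± 0.287 against 1.88 ± 0.995 FPKM; -0.20, adjusted p = 0.585), and HIST1H4K, whose sequence is shared throughout with other genes, gave 0.47 (adjusted p = 0.378).

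**Figure D3:**
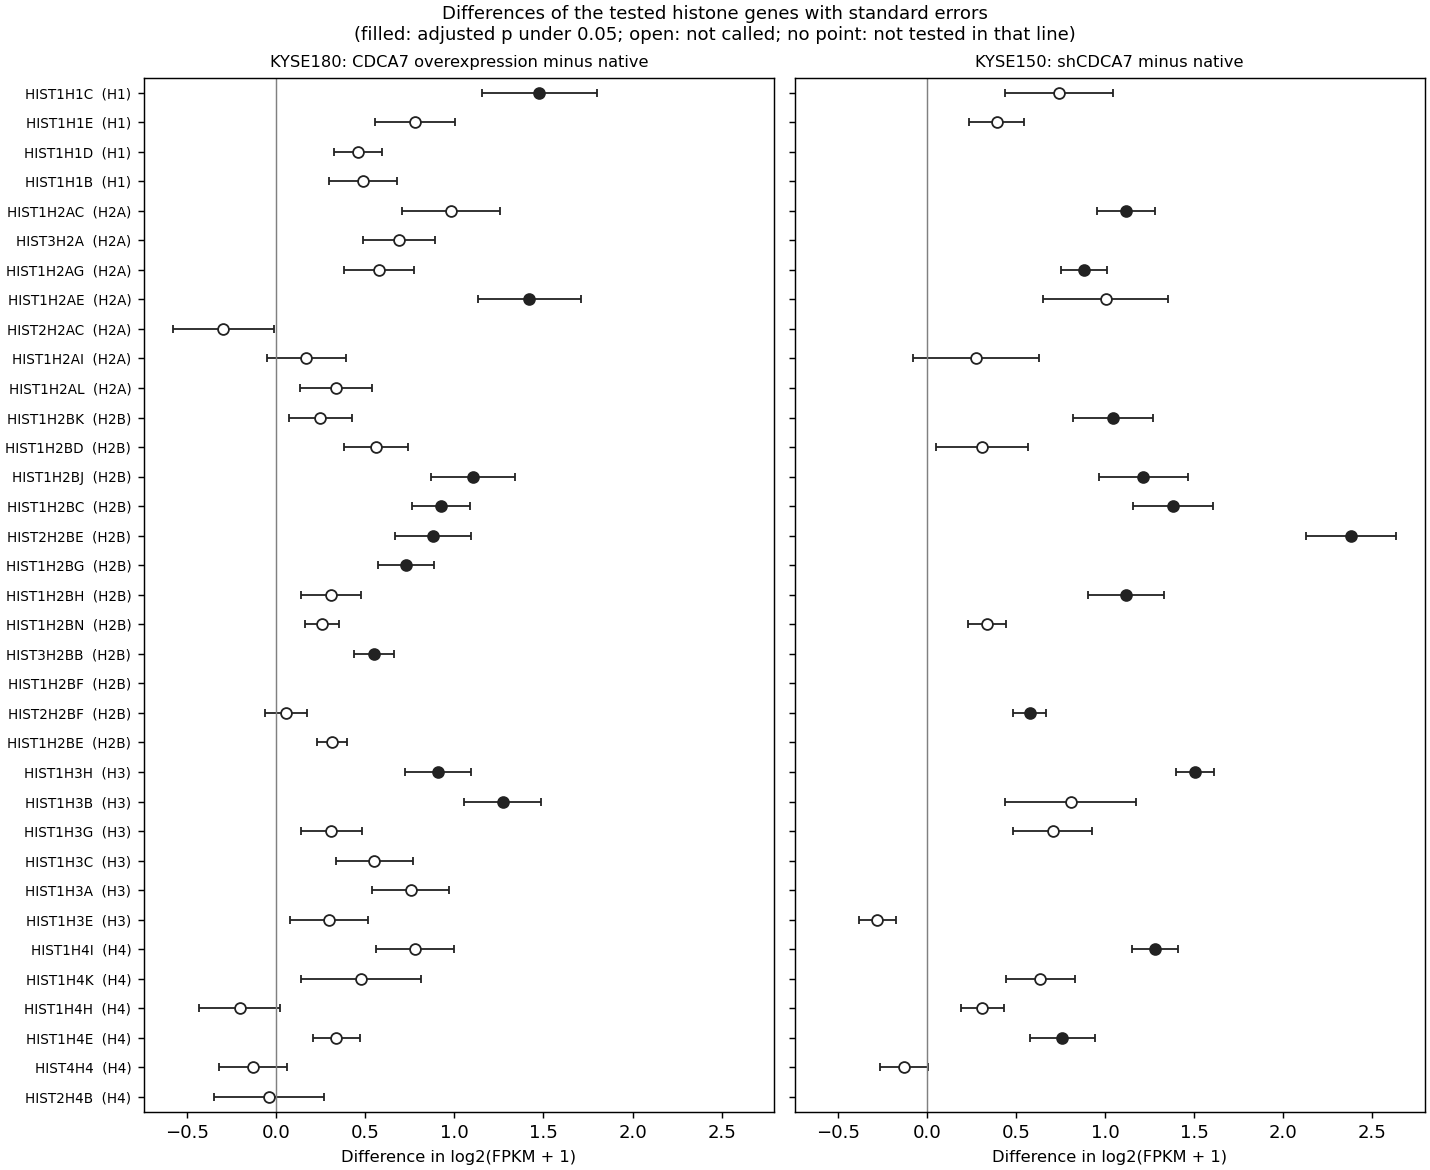
Difference in log2(FPKM + 1) with its standard error for each tested member in KYSE180 (left, overexpression minus native, 34 genes) and KYSE150 (right, shCDCA7 minus native, 23 genes); filled points passed an adjusted p of 0.05. Most points lie right of 0 in both panels, and HIST2H2BE in KYSE150 lies farthest to the right, at 2.38.

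The comparison in KYSE150 asks which of these genes differ when CDCA7 is lowered. Of the 23 members tested, 11 were called higher with shCDCA7, 0 lower, and 12 did not pass. Among all 14342 genes tested in KYSE150, 10% were called higher and 9.86% lower. The members' median log2 difference was 0.76, against 0.00 over all genes, and 21 of 23 lay above 0. HIST1H4E and HIST2H2BF, both called, had enough reads in 3 shCDCA7 libraries but in only 1 native library, so the filter favoured higher values for them. At an unadjusted p under 0.05, 18 were higher and 1, HIST1H3E, was lower, where 19% of all genes were higher and 17.8% lower. With limma-voom 11 members were called higher and 0 lower, and 10.7% of all genes higher. By type the higher calls were 6 of 8 H2B, 2 of 4 H2A, 2 of 5 H4, 1 of 4 H3 and 0 of 2 H1 genes; both H1 genes were higher at an unadjusted p under 0.05. Of 14 tested members with an annotated poly(A) signal, 9 were called, and of 4 annotated as coding sequence only, 1 was called. Of 4 with a stem-loop and no such signal, 1 was called. In KYSE180 the same counts were 4 of 17, 2 of 10 and 3 of 6. The 1 tested member with untranslated sequence but neither element had no call in either line.

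The count moved with single libraries in KYSE150 too. Without shCDCA7 replicate 2, the library with the high mitochondrial share, 20 of 23 members were called higher and 0 lower, where 29.5% of all genes were called higher. All 11 members called with it kept their calls, and the median log2 difference was 0.97. Among the added calls were HIST1H1C (1.11, adjusted p = 3.93e-05), HIST1H2BD (0.60, adjusted p = 0.00415), HIST1H3B (1.18, adjusted p = 0.00523) and HIST1H3G (0.95, adjusted p = 0.000148). HIST1H1E, HIST1H3E and HIST4H4 were the 3 without a call. Without shCDCA7 replicates 1 and 3, 9 and 8 members were called higher, against 6.19% and 5.24% of all genes. Without native replicates 1, 2 and 3, 4, 3 and 5 were called, against 1.9%, 1.44% and 2.54% of all genes. HIST2H2BE, HIST1H3H and HIST1H4I kept their calls in all 15 alternatives tried, and the other 8 lost theirs in at least 1, at adjusted p of up to 0.132.

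HIST2H2BE (chromosome 1, 149884459 to 149886652), whose stem-loop and promoter are printed above, was at 17.3, 11.5 and 23.5 FPKM with shCDCA7 against 2.92, 2.25 and 2.10 FPKM in native KYSE150. Its mean was 7.19-fold higher, and the log2 difference was 2.38 (SE 0.25, adjusted p = 0.00391). HIST1H2BC was at 26.6, 16.2 and 30.4 FPKM with shCDCA7 and 8.91, 8.82 and 7.67 FPKM in native cells (1.38, SE 0.23, adjusted p = 0.0111). HIST1H2BJ was at 57.9, 32.8 and 64.1 FPKM with shCDCA7 and 20.3, 23.1 and 19.2 FPKM in native cells (1.22, SE 0.25, adjusted p = 0.0209). HIST1H2BK, highest by mean FPKM, was at 282, 172 and 316 FPKM with shCDCA7 and 117, 124 and 119 FPKM in native cells (1.04, SE 0.23, adjusted p = 0.0245). For each of these 4 H2B genes replicate 2 had the lowest shCDCA7 value and still lay above all native libraries. HIST1H2BH (2.71 ± 0.997 against 0.662 ± 0.0801 FPKM; 1.12, adjusted p = 0.0164) and the low HIST2H2BF (0.692 ± 0.189 against 0.130 ± 0.0448 FPKM; 0.58, adjusted p = 0.00998) were also higher. HIST1H2BD overlapped between the groups, at 41.6, 25.0 and 51.3 FPKM with shCDCA7 and 34.7, 28.0 and 28.4 FPKM in native cells (0.31, adjusted p = 0.426).

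Of the H2A genes, HIST1H2AC (chromosome 6, 26124145 to 26139116), which lies 218 bases from HIST1H2BC on the other strand, was at 72.9, 53.5 and 80.2 FPKM with shCDCA7 and 28.3, 31.6 and 32.5 FPKM in native KYSE150 (1.12, SE 0.16, adjusted p = 0.00784). HIST1H2AG, the partner of HIST1H2BJ across 291 bases, was at 7.95, 8.45 and 6.98 FPKM with shCDCA7 and 3.20, 4.07 and 4.04 FPKM in native cells (0.88, SE 0.13, adjusted p = 0.00790). Both genes of these pairs were higher. HIST2H2AC, the partner of HIST2H2BE, had too few reads for a test in KYSE150, with 0.486, 2.62 and 0.729 FPKM with shCDCA7 and 0.360, 0.264 and 0.256 FPKM in native cells. In shCDCA7 replicate 2 HIST2H2AC was highest and HIST2H2BE lowest.

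Among H3 genes HIST1H3H was at 6.90, 6.62 and 7.54 FPKM with shCDCA7 and 1.70, 1.95 and 1.82 FPKM in native KYSE150 (1.50, SE 0.10, adjusted p = 0.00181), with a spread within groups that is small beside the difference. HIST1H3B (2.78 ± 1.96 against 0.989 ± 0.329 FPKM; 0.81, adjusted p = 0.167) and HIST1H3G (4.11 ± 1.41 against 2.04 ± 0.171 FPKM; 0.71, adjusted p = 0.0678) did not pass. Of the H4 genes HIST1H4I was at 30.3, 37.5 and 28.5 FPKM with shCDCA7 and 12.9, 11.4 and 13.4 FPKM in native cells (1.28, SE 0.13, adjusted p = 0.00329). Replicate 2 was the highest of its group for HIST1H4I, unlike for the 4 H2B genes described above. HIST1H4E was higher at a low level (1.31 ± 0.546 against 0.340 ± 0.0878 FPKM; 0.76, adjusted p = 0.0325), whereas HIST1H4H (0.31, adjusted p = 0.113) and HIST1H4K (0.64, adjusted p = 0.0644) did not pass. The linker gene HIST1H1C was at 239, 111 and 240 FPKM with shCDCA7 and 121, 105 and 106 FPKM in native cells, and replicate 2 lay within the native range (0.74, SE 0.30, adjusted p = 0.131).

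**Figure D4:**
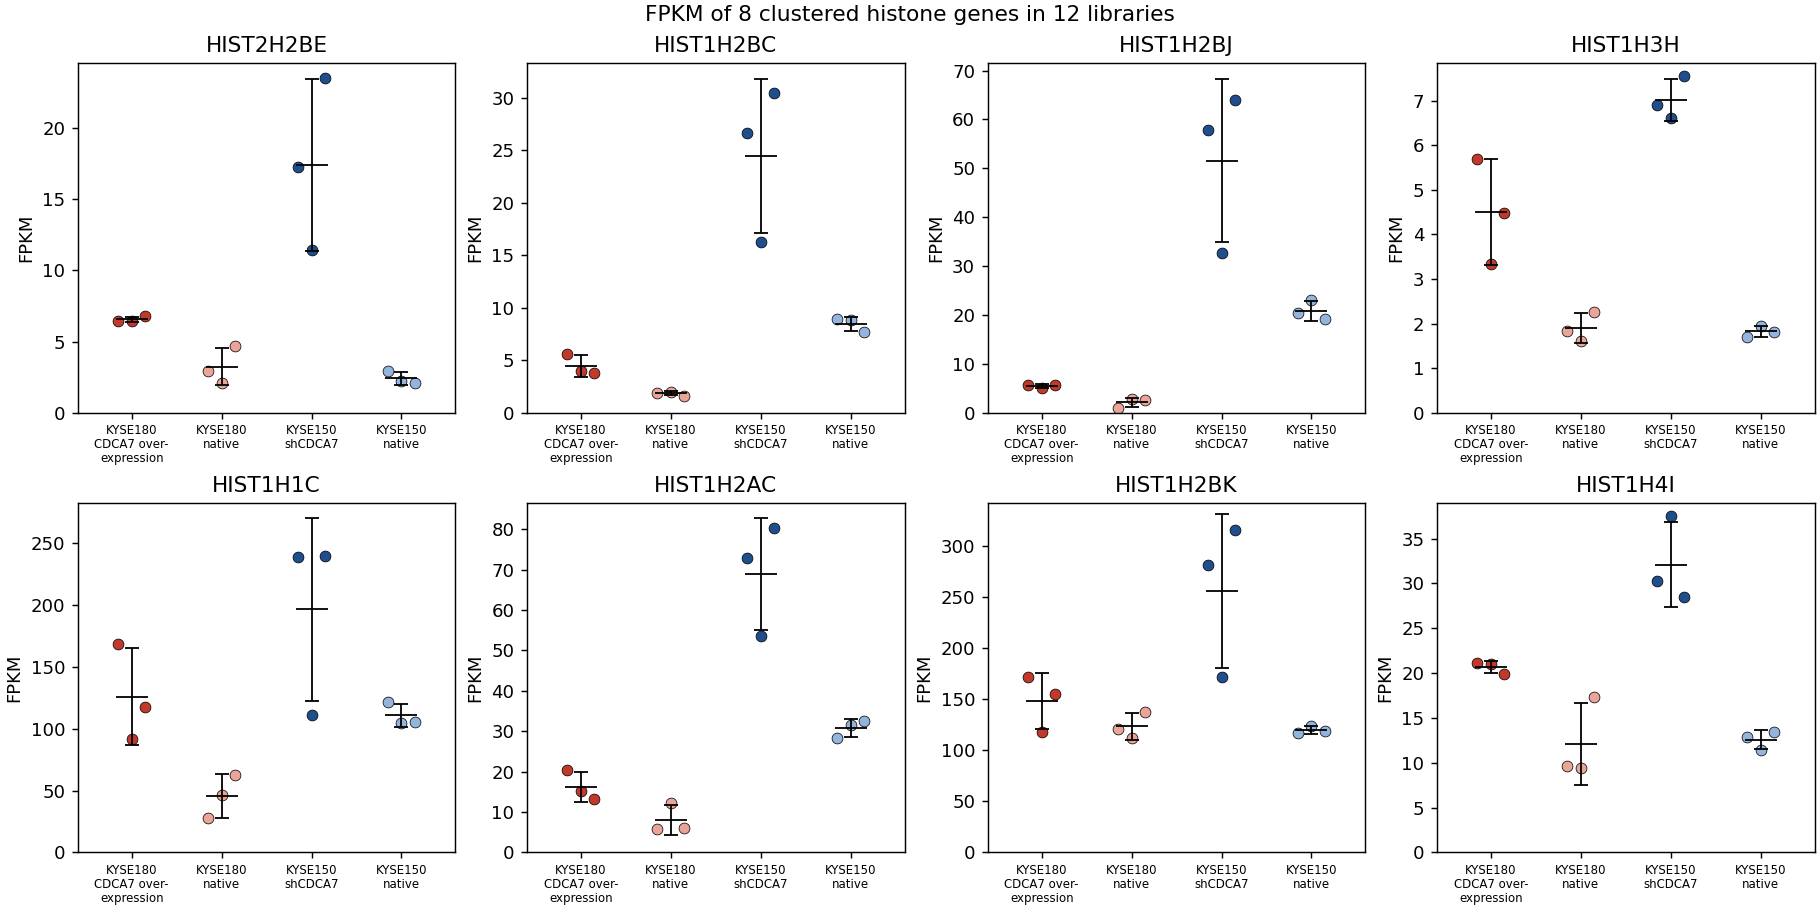
FPKM of 8 members in every library (points), with the group mean and SD (bars, n = 3). HIST2H2BE, HIST1H2BC, HIST1H2BJ and HIST1H3H were called higher in both manipulated groups, HIST1H1C with overexpression, and HIST1H2AC, HIST1H2BK and HIST1H4I with shCDCA7; of these 8, HIST2H2BE passed the test of the difference between the effects.

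The 2 comparisons share no library. Of 23 members tested in both lines, 20 had a log2 difference above 0 in both. HIST1H2BC, HIST1H2BJ, HIST1H3H and HIST2H2BE were called in both, which is 44.4% of the 9 called in KYSE180 and 36.4% of the 11 called in KYSE150. Of all 13377 genes tested in both lines, 33.5% lay above 0 in both, and 215 were called higher in both, which is 29% of all those called higher in KYSE180 and 14.9% in KYSE150. The difference between the 2 effects was tested in a fit of all 12 libraries. Of 35 members tested, 1 was called with the larger overexpression effect and 1 with the larger shCDCA7 effect, where 2.87% and 2.7% of all 17088 genes were called, so the members' counts lie near the background. HIST2H2BE had the larger shCDCA7 effect (-1.50, SE 0.35, adjusted p = 0.0327). HIST3H2BB had the larger overexpression effect (0.56, SE 0.11, adjusted p = 0.0182), but it had 1 read in all KYSE150 libraries, so no effect could be measured there. For HIST1H1C the difference of effects did not pass (0.74, SE 0.49, adjusted p = 0.407), and neither did that of HIST1H2BK (-0.79, SE 0.30, adjusted p = 0.147). Without 1 library the calls ran from 0 to 3 and from 0 to 5, where 0.92% to 4.78% and 0.666% to 5.51% of all genes were called, and the call of HIST2H2BE was lost in 13 of 20 alternatives.

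Between the native cells of the 2 lines, members differed in both directions. The native libraries used here are also those of the 2 comparisons above. Of 35 members tested, 10 were higher and 7 lower in native KYSE180 than in native KYSE150, where 33.4% and 24.6% of all genes were called, so the members' counts lie near the background. Of the 10 higher members, 7 had enough reads for the test in KYSE180 libraries alone (HIST3H2A, HIST3H2BB, HIST1H3C, HIST1H3A, HIST1H2AL, HIST1H2BG and HIST1H1D), so the filter favoured that direction for them. None of the 7 lower members passed the filter through 1 line alone. The median was 0.17, against 0.07 over all genes. Leaving out any 1 library gave 9 to 11 higher and 7 or 8 lower members, where 29.4% to 36.6% and 20.9% to 28.8% of all genes were called.

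HIST3H2A, an H2A gene on chromosome 1 (228456979 to 228457873), was at 9.10, 6.86 and 7.54 FPKM in native KYSE180 and had no read in native KYSE150, which makes it at least 142-fold higher, against a floor of 3 reads over the 3 libraries. It had 1013 reads in the 6 KYSE180 libraries and 1 in the 6 of KYSE150. HIST3H2BB, 233 bases away on the other strand, had 254 and 1. Both genes of the pair were thus read in 1 line and nearly absent from the other. HIST1H3C (2.59 ± 0.951 FPKM in native KYSE180) and HIST1H2AL (1.13 ± 0.584 FPKM), which overlaps HIST1H2BN on the same strand, had no read in any KYSE150 library either. In all, 8 members had reads in KYSE180 and none in KYSE150, 4 of them with at least 15 reads, and 4 had reads in KYSE150 and none in KYSE180, with 1 or 2 reads each.

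In the other direction, HIST1H2BJ was at 1.04, 2.78 and 2.62 FPKM in native KYSE180 and 20.3, 23.1 and 19.2 FPKM in native KYSE150 (-2.85, SE 0.26, adjusted p = 2.86e-06). HIST1H2AC (8.05 ± 3.68 against 30.8 ± 2.21 FPKM; -1.88, adjusted p = 5.96e-05), HIST1H2BC (1.84 ± 0.183 against 8.47 ± 0.690 FPKM; -1.74, adjusted p = 2.26e-05) and HIST1H1C (45.6 ± 17.8 against 111 ± 9.23 FPKM; -1.33, adjusted p = 0.00618) were also lower in KYSE180. HIST1H2BK did not differ beyond its spread, at 124 ± 13.1 FPKM in native KYSE180 and 119.9 ± 3.86 FPKM in native KYSE150 (0.04, SE 0.21, adjusted p = 0.889). HIST2H2BE did not pass either (0.27, adjusted p = 0.368), while HIST2H2AC, its partner across 322 bases, was higher in KYSE180 (3.02 ± 1.32 against 0.293 ± 0.0575 FPKM; 1.58, adjusted p = 0.00164). Genes of a pair therefore did not always differ together between the lines.

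**Figure D5:**
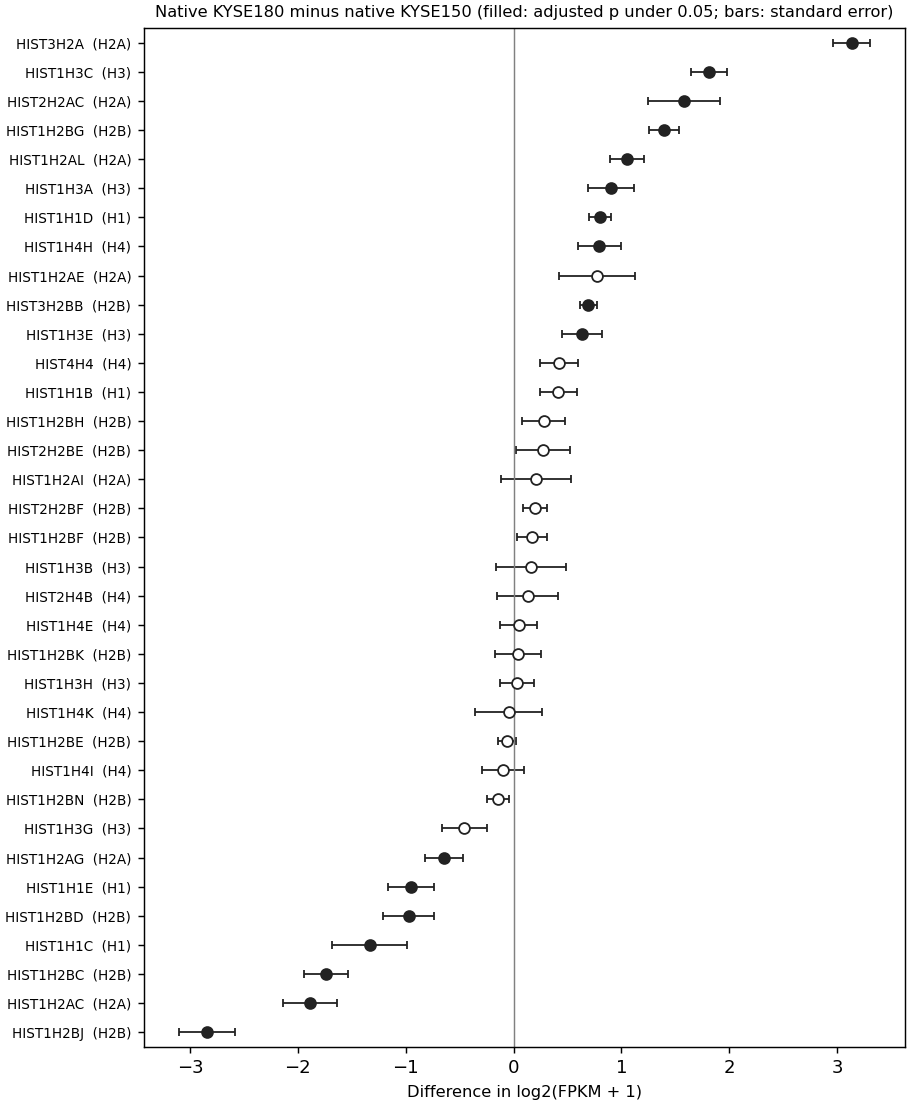
Difference in log2(FPKM + 1) of native KYSE180 minus native KYSE150, with its standard error, for the 35 tested members in order of size; filled points passed an adjusted p of 0.05. HIST3H2A is at the top, at 3.13, and HIST1H2BJ at the bottom, at -2.85.

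Genes that make or use histone mRNA were set beside the members. SLBP was at 49.0 ± 4.56 with overexpression and 55.4 ± 12.7 FPKM in native KYSE180 (-0.15, adjusted p = 0.610), and at 40.6 ± 2.28 with shCDCA7 and 37.3 ± 0.746 FPKM in native KYSE150 (0.12, adjusted p = 0.335). NPAT, the cyclin E-dependent coactivator of histone transcription, was at 4.22 ± 1.33 with overexpression and 5.07 ± 0.329 FPKM in native KYSE180 (-0.25, adjusted p = 0.439), and at 3.17 ± 1.36 with shCDCA7 and 4.65 ± 0.0979 FPKM in native KYSE150 (-0.49, adjusted p = 0.163). CASP8AP2, a component of the same nuclear bodies, gave -0.29 in KYSE180 (adjusted p = 0.310) and -0.58 in KYSE150 (adjusted p = 0.0998). ERI1, the exonuclease that trims the stem-loop end, gave -0.28 (adjusted p = 0.255) and 0.10 (adjusted p = 0.504). None of these 4 genes passed the test in either line with all libraries. In shCDCA7 replicate 2 NPAT was at 4.73 FPKM, within the native range, and in replicates 1 and 3 at 2.34 and 2.42 FPKM. Without replicate 2, NPAT (-0.74, adjusted p = 0.000140) and CASP8AP2 (-0.81, adjusted p = 0.000290) were called lower with shCDCA7 and SLBP higher (0.16, adjusted p = 0.0103), and ERI1 did not pass (0.06, adjusted p = 0.434).

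Of 40 genes of DNA replication, 0 were called in KYSE180 (limma-trend; 1 higher and 14 lower at an unadjusted p under 0.05; median -0.32). In KYSE150, 15 were lower with shCDCA7 and 0 higher (0 higher and 27 lower unadjusted; median -0.42), among them UHRF1 (-1.01, adjusted p = 0.00244), MCM10 (-0.88, adjusted p = 0.0119) and the helicase factor CDC45 (-0.75, adjusted p = 0.0206). Without shCDCA7 replicate 2, 35 were lower and 1 higher, where 26.4% of all genes were lower. The medians of the histone genes and of the replication genes thus had opposite signs in both lines. Of 21 histone chaperones and importers, 5 were lower with shCDCA7 and 1 higher (9 and 4 without replicate 2). Of all genes, 9.86% were lower and 10% higher (26.4% and 29.5% without replicate 2). The lower ones include ASF1B, which hands on new H3 and H4 (14.2 ± 0.803 against 34.5 ± 2.21 FPKM; -1.23, adjusted p = 0.00200), the assembly factor subunit CHAF1A (-1.06, adjusted p = 0.00324) and TONSL (-1.04, adjusted p = 0.0143). The higher one was DAXX, a chaperone of the replacement histone H3.3 (0.52, adjusted p = 0.0114). In KYSE180 the chaperones had 1 call, NAP1L1, higher (0.61, adjusted p = 0.0330).

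Of 11 histone genes outside the clusters that were tested, most of them replication-independent with polyadenylated mRNA, 2 were higher with shCDCA7, H3F3A (0.41, adjusted p = 0.0172) and H3F3B (0.50, adjusted p = 0.0128), and 0 lower (5 and 0 unadjusted; 7 and 0 without replicate 2). With overexpression 1 was higher, the centromeric CENPA (37.0 ± 6.46 against 22.7 ± 2.66 FPKM; 0.68, adjusted p = 0.0422). Of 12 genes of histone mRNA decay, the decapping enzyme DCP2 was higher in both, at 7.30, 6.72 and 6.51 FPKM with overexpression against 3.82, 4.32 and 3.36 in native KYSE180 (0.70, adjusted p = 0.0266). With shCDCA7 it was at 8.25, 8.74 and 9.0 FPKM against 4.53, 4.60 and 5.03 in native KYSE150 (0.76, adjusted p = 0.00623). LSM1, of the decay complex, was higher with shCDCA7 (0.52, adjusted p = 0.0170). Without replicate 2, 3 genes of this list were higher and 2 lower, where 29.5% of all genes were higher and 26.4% lower. With all libraries, 10% of all genes were called higher and 9.86% lower with shCDCA7, and 4.65% and 4.43% with overexpression.

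Of 14 genes of histone pre-mRNA processing, 0 were called with overexpression (1 higher and 1 lower unadjusted), and 3 were lower with shCDCA7, CSTF2 (-0.51, adjusted p = 0.0235), CLP1 (-0.42, adjusted p = 0.0373) and CPSF1 (-0.41, adjusted p = 0.0439). Of 15 genes of end choice and cap binding, SRRT (ARS2), which favours the stem-loop end, was lower in both manipulated groups (-0.59, adjusted p = 0.0452 with overexpression, and -0.48, adjusted p = 0.0184 with shCDCA7). CPSF6 was lower with overexpression (-0.61, adjusted p = 0.0293). With shCDCA7 CSTF2T was lower (-0.92, adjusted p = 0.00600), and ZFC3H1 (0.88, adjusted p = 0.0132), NELFCD (0.37, adjusted p = 0.0282) and NCBP2 (0.31, adjusted p = 0.0435) were higher. Among 13 genes of histone transcription, CCNE2 was lower in both (-0.86, adjusted p = 0.0444 with overexpression, and -0.62, adjusted p = 0.00820 with shCDCA7). E2F1 was lower with shCDCA7 (-1.09, adjusted p = 0.0199), whereas CCNA2 (0.60, adjusted p = 0.0264) and WEE1 (0.75, adjusted p = 0.00413) were higher. Without shCDCA7 replicate 2 the counts were 3 higher and 7 lower for pre-mRNA processing, 6 and 5 for end choice and cap binding, and 3 and 5 for histone transcription. In that fit 29.5% of all genes were called higher and 26.4% lower. With all libraries, 10% of all genes were higher and 9.86% lower with shCDCA7, and 4.65% and 4.43% with overexpression. Each gene of these lists named above as called with shCDCA7 kept its call and direction without replicate 2. The part of the replication genes, of the mitochondrial share or of these factors in the histone differences was not tested.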

How the data were processed

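RNA-seq libraries from 12 cell line samples were grouped by their labels. The deposited table names no unit; its values fit FPKM, as the authors deposited them, since each is a whole number of reads (tolerance 0.01) per length and library. Per the submitters' processing notes, HISAT2 2.0.5 and DESeq2 1.20.0 were used, with mm10 as build. That is a mouse build, whereas the identifiers are those of human GENCODE 29 on GRCh38 (58676 of 58735 matched), which gave coordinates and transcripts. The counting tool and its use of strand are not given in the sources used here.

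Genes were kept for testing if 3 or more libraries had 10 or more reads, after scaling to the median library, and if the total was 15 or more. They were fitted with limma 3.58.1 (R 4.3.3), limma-trend on log2(FPKM + 1). This understates changes of low genes. Each line's 6 libraries were fitted separately, and all 12 for differences between lines. Calls are at a Benjamini-Hochberg adjusted p under 0.05 over all genes tested, two-sided. The fits were also run on simulated reads, with the same spread setting for all genes and no library set apart. That run does not bear on how calls depend on single libraries. No negative binomial count model was fitted.

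Members were chosen by biotype and symbol. The members and gene lists were chosen with earlier results of these data known. Named are all members called with either manipulation, the 3 most abundant of each type, the member with the highest value, CDCA7, SLBP, NPAT, CASP8AP2, ERI1, and up to 3 called genes per list and direction; other members are named as partners or contrasts, after their values were seen. Alternatives were another added constant, filters, scalings, limma-voom, GC trend removal, a replicate block, all 12 libraries and leaving out each library; the gene lists without shCDCA7 replicate 2 were added after seeing the data.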

Additional observations from a re-analysis of the deposited data

Results flagged for a closer look

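For HIST2H2BE the test of the difference itself, the overexpression effect in KYSE180 minus the shCDCA7 effect in KYSE150, passed at -1.50 on the log2 scale. HIST3H2BB also passed it, at 0.56, but it had 1 read in the 6 KYSE150 libraries, so this value rests on KYSE180, and no effect in KYSE150 could be measured. Of all genes, 2.87% passed in 1 direction and 2.7% in the other, and 1 of 35 members in each is near that background. The adjusted p of HIST2H2BE ran from 0.00836 to 0.0984 over its 20 alternatives and that of HIST3H2BB from 0.00745 to 0.348 over 19.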

How the results depend on the processing

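No call of a member changed sign: of 671 refits of the 39 calls, 560 kept the call and 111 lost it. The losses fell unevenly. Every alternative kept 0 of the 9 calls with overexpression, 3 of the 11 with shCDCA7 and 0 of the 2 for the difference of effects. Between the native lines 16 of 17 calls were kept in every alternative. With overexpression, 9 members were called higher; the count was 0 with no filter on low values (where 2 of all genes were called higher), 4 with a replicate block (2.04% of all genes), 18 with all 12 libraries in the fit (8.01%), and 0 to 15 without 1 library (0.00635% to 7.93%). With shCDCA7, 11 were called higher; the count ran from 3 to 20 without 1 library, where 1.44% to 29.5% of all genes were called higher, and was 10 with a replicate block (3.37%). No pairing by replicate number was seen: deviations of same-numbered libraries correlated between -0.08 and 0.05, and those of other pairs between -0.08 and 0.11. Whether same-numbered libraries were handled together cannot be told from these values. Counts of lower members were 0 in both comparisons under every alternative run. For the difference of the 2 effects, with 1 member each way, the count of higher members was 0 with no filter, with a mean of at least 1 FPKM and with limma-voom, and 0 to 3 without 1 library. Lower members numbered 0 with no filter, scaled to total reads, with upper-quartile scaling and with limma-voom, 2 with the GC trend removed, and 0 to 5 without 1 library. The native comparison kept both counts within 1.5 times, and the call of HIST1H3E was lost without native KYSE150 replicate 1 (adjusted p = 0.0528). Total-read scaling shifted the median of all genes in KYSE150 to -0.16 and gave 776 higher and 3015 lower genes in place of 1440 and 1414; members then had 8 higher and 0 lower. In KYSE180 it gave 502 higher and 1229 lower genes in place of 741 and 706, and 8 and 0 members. Per 10000 reads on nuclear protein-coding genes, the share on members was 3.21 in native KYSE150 in place of 3.02. The causes of these shifts were not tested. Members that missed the read filter could not be tested at this depth, among them HIST1H2BO with 71 reads over the 12 libraries.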

Other observations

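The table also holds 19 histone-cluster rows of other biotypes, which are pseudogenes. The short HIST1H2APS3 was at 2.31, 6.66 and 3.65 FPKM with overexpression and 3.91, 0.402 and 3.03 FPKM in native KYSE180, and had no read in any KYSE150 library. The transcribed HIST2H2BC was at 1.23, 0.976 and 1.10 FPKM with shCDCA7 and 0.755, 0.495 and 0.691 FPKM in native KYSE150. These rows were not tested as members.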
